A study of Mus musculus with 6 samples.

Results

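The smooth muscle contractile apparatus was described through 31 genes of the mouse aorta, taken by symbol from the 32771 gene rows of the deposited table. They fall into 10 thin filament genes, 7 genes of myosin and its regulation, 9 genes of adhesion and cytoskeletal anchorage, 3 genes of calcium handling and relaxation, and 2 transcriptional regulators. RNA was sequenced from aortas of WT (wild-type) mice, all given AngII/BAPN, which pairs angiotensin II with beta-aminopropionitrile, an inhibitor of the enzyme that cross-links collagen and elastin. The anti-CTHRC1 group (replicates 5, 7 and 39) also received an antibody to CTHRC1, a secreted matrix protein made by activated fibroblasts, and the IgG group (replicates 14, 18 and 20) received an isotype control antibody. Every library is therefore of aorta after AngII/BAPN, and no aorta without AngII/BAPN was analysed here. The sources used here give no age, sex, dose or duration. The question put to these genes was whether their transcripts differ when CTHRC1 is targeted by the antibody during AngII/BAPN.

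In vascular smooth muscle, calcium that enters the cell binds calmodulin, which activates myosin light chain kinase. The kinase phosphorylates the regulatory light chain and lets smooth muscle myosin pull on filaments of smooth muscle actin, and myosin phosphatase reverses this step. The filaments end in dense bodies and dense plaques, where integrins tie the cell to the elastic and collagen fibres of the aortic wall. Many of these genes are switched on by serum response factor (SRF) and its coactivator myocardin, through a DNA element called the CArG box. In humans, inherited variants of the smooth muscle actin, myosin and light chain kinase genes cause aneurysm and dissection of the thoracic aorta.

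The CArG box consists of a pair of C bases, a run of A or T bases and a pair of G bases, and it reads as the same pattern on both strands. RefSeq promoters on GRCm38.p6, each covering 250 bases before to 50 bases after the gene's start, were found for 27 of the 31 genes. Those of Tagln, Actg2, Myh11 and Myocd were not found, so these genes were not searched for the box. A CArG box was present in 5 of the 27 (18.5%), against 488 of 27025 mouse promoters of the same length (1.81%). The stretches below are shown because they hold the letters of that element, with the box in capitals and each sequence written 5′ to 3′ on the gene's own strand.
Cnn2, chr10:79988529-79988568, plus strand: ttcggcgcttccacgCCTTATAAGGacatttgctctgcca
Myl6, chr10:128493035-128493074, minus strand: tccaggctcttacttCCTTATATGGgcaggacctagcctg
Myl9, chr2:156775288-156775327, plus strand: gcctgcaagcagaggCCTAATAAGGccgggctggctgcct
Vcl, chr14:20929156-20929195, plus strand: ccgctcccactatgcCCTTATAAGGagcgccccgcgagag
Srf, chr17:46556200-46556239, minus strand: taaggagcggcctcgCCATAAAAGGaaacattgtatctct
Srf, chr17:46556220-46556259, minus strand: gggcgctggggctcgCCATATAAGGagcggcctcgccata
Acta2, chr19:34255433-34255472, minus strand: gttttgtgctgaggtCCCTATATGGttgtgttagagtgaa
The boxes of Cnn2, Myl6 and Myl9 begin 56, 50 and 161 bases before the start, that of Vcl begins 227 bases before it, and those of Srf begin 62 and 82 bases before it. The Acta2 stretch, whose capitals begin 84 bases before the start, differs from the box by 1 base and is shown because Acta2 is the most abundant of the 31 genes. Another Acta2 stretch that differs by 1 base begins 34 bases before the start and is not shown. The starts meant here are those of RefSeq. The deposited Acta2 and Myl6 genes, on the minus strand, begin further upstream, at 34255590 and 128494145. The Acta2 and Myl6 stretches shown therefore lie inside the deposited genes. Counting stretches with at most 1 such difference, 11 of the 27 promoters held a match, against 6419 of all 27025. A match describes letters in these windows and says nothing of binding in the aorta. Neither the presence of a box nor its position was tested against the differences between the groups.

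Deposited counts summed to between 64556253 and 67859566 per library. The labels do not state that the libraries are of different animals, and the p-values given here reflect only how much these libraries varied. Anti-CTHRC1 39 lay between anti-CTHRC1 5 and 7 in 79.8% of the 4080 genes in which those differed by over 0.5 on the log2 scale, and, with no such limit, in 29 of the 31 contractile genes and 52.0% of all genes tested, so its independence from them was not shown. IgG 14 differed most from its own group, with a chi-square per degree of freedom of 334 against IgG 20 and 299 against IgG 18, where IgG 18 and 20 gave 114. Results are therefore also given without these libraries. The smooth muscle markers Acta2, Myh11, Tagln, Cnn1, Smtn and Lmod1 all reached at least 93.1 CPM in every library. CPM are counts of the gene scaled to a common library size. These markers are among the 31 genes, and other smooth muscle tissue would also express them, so their levels do not test the aortic label.

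None of the 31 genes passed the threshold in the main test, although each had a negative log2 fold change of the antibody group over the IgG group. The median was -0.55, with a range from -1.17 for Actg2 to -0.08 for Smtn, beside a median of -0.02 over all 19241 genes tested. Below, log2 fold changes carry their standard error after the ± sign, and means in CPM or FPKM their standard deviation over 3 libraries. Across those genes, 52.3% had a negative log2 fold change. The median of the contractile genes was -0.69 without both anti-CTHRC1 39 and IgG 14, -0.31 without IgG 18 and -0.35 without anti-CTHRC1 7. The edgeR quasi-likelihood test with Benjamini-Hochberg adjustment over all genes called 0 of the 31, where it called 0.213% of all genes lower and 0.104% higher. At an unadjusted p under 0.05 it held 5 of the 31, namely Actg2, Cnn2, Lmod1, Pgm5 and Des, beside 9.31% of all genes with a lower level at that limit. DESeq2 called 2 of the 31 lower, Actg2 and Des, against 4.70% of the genes it tested. The groups did not overlap in 3 of the 31, Tpm1, Pgm5 and Des, each lower after the antibody, and all genes gave 11.0% for the same pattern.

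**Figure D1:**
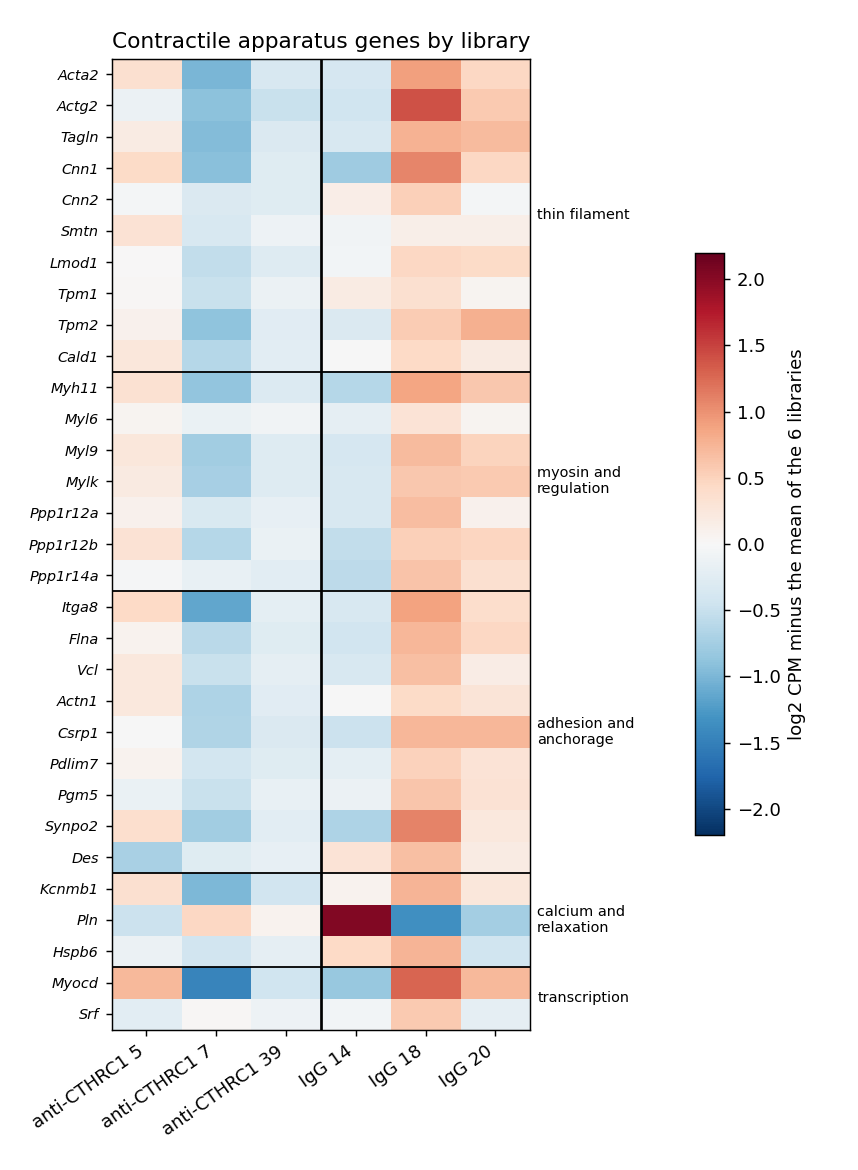
Heat map of the 31 contractile genes (rows, by subgroup) in the 6 libraries (columns, anti-CTHRC1 to the left of the line and IgG to the right), as log2 CPM minus each gene's mean over the libraries. IgG 18 was the highest library for 28 genes and anti-CTHRC1 7 the lowest for 24, while Des, Pln and Hspb6 show other orders.

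The genes moved together across libraries, within the groups as well as between them. Their summed counts took 1.24%, 0.628% and 0.877% of the library in anti-CTHRC1 5, 7 and 39, against 0.981%, 1.78% and 1.35% in IgG 14, 18 and 20. IgG 18 and 20 were above all antibody libraries, while IgG 14 was below anti-CTHRC1 5, so the groups overlapped. The order 5, 39, 7 in the antibody group together with 18, 20, 14 in the IgG group, each from high to low, was found in 22 of the 31 genes and in 4.93% of all genes tested. IgG 18 was the highest of the 6 libraries in 28 genes (18.4% of all genes), and anti-CTHRC1 7 was the lowest in 24 (19.7% of all genes). The order and these extremes are those of the summed counts of the same genes, so high shares among the 31 are partly built in. Because the genes share this order, their 31 negative values are not 31 separate observations. The mean level over the genes, centred on the 6 libraries, was 0.11, -0.60 and -0.24 (log2) in anti-CTHRC1 5, 7 and 39 and -0.19, 0.62 and 0.29 in IgG 14, 18 and 20, with a pooled standard deviation within groups of 0.38.

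**Figure D2:**
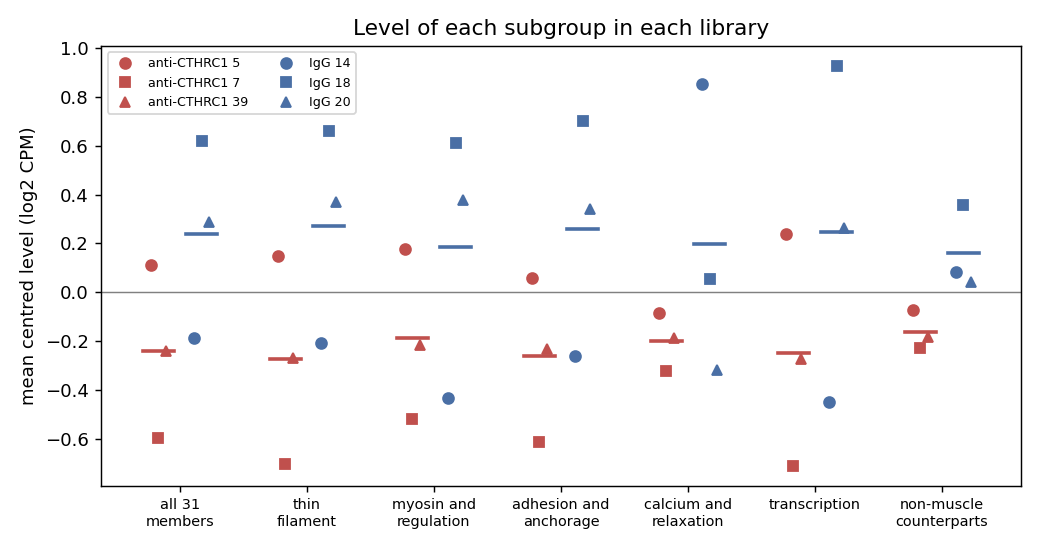
Mean centred level (log2 CPM, vertical axis) of all 31 genes, of each subgroup and of 10 non-muscle counterparts, with 1 point per library and a line at the group mean (anti-CTHRC1 red, left, and IgG blue, right). Over all 31 genes anti-CTHRC1 5 lies at 0.11 and IgG 14 at -0.19, so that the groups cross, whereas the non-muscle counterparts do not cross.

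In bulk tissue, fewer smooth muscle cells and less RNA per cell cannot be told apart. Other cell types also differed between the libraries. The summed level of 8 adipocyte markers was 3610, 6757 and 5304 CPM in anti-CTHRC1 5, 7 and 39, against 1977, 2005 and 3774 CPM in IgG 14, 18 and 20. IgG 20 lay slightly above anti-CTHRC1 5. Within the antibody group the adipocyte sum was lowest in replicate 5 and highest in replicate 7, the reverse of the contractile genes. In the IgG group it was not the reverse, as IgG 14 was lowest in the adipocyte sum and in the contractile share. Of the adipocyte markers, 8 of 8 had a positive log2 fold change and 1 was called higher by edgeR. At an unadjusted edgeR p under 0.05 there were 5, and DESeq2 called 5. Of all genes tested, 7.80% were higher and 9.31% lower at that unadjusted limit, and edgeR called 0.104% higher and 0.213% lower. DESeq2 called 2.78% of the genes it tested higher and 4.70% lower. The sum of 8 fibroblast markers ran from 6565 to 8219 CPM in the antibody group and from 4838 to 5189 CPM in the IgG group (7 of 8 positive, 0 called, 6 at an unadjusted p under 0.05, 4 called by DESeq2), and that of 10 macrophage markers from 916 to 1337 CPM with the antibody and from 1655 to 2258 CPM with IgG (9 of 10 negative, 1 called lower, 7 at an unadjusted p under 0.05, 6 called by DESeq2). Sums also overlapped for brown adipocyte (419 to 1559 with the antibody and 506 to 628 CPM with IgG), pericyte (1188 to 1602 with the antibody and 1065 to 1791 CPM with IgG), endothelial (955 to 1184 with the antibody and 735 to 1246 CPM with IgG), T and NK cell (4.40 to 6.34 with the antibody and 4.60 to 56.7 CPM with IgG) and mesothelial markers (5.36 to 8.01 with the antibody and 3.04 to 95.3 CPM with IgG). Their positive counts were 5 of 6, 3 of 6, 5 of 8, 0 of 8 and 0 of 6 in that order, with 0 called by edgeR in each, and 0, 2, 0, 5 and 2 at an unadjusted p under 0.05 (DESeq2 called 0, 0, 0, 6 and 2). The only marker at 0 in a library was the mesothelial Krt19 in IgG 20. The part of these differences in the contractile values was not tested.

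Levels were compared between genes as the deposited FPKM (a fragment count scaled to gene length and library size), which allow for gene length. Acta2 was the most abundant of the 31, at 736 ± 358 FPKM after the antibody and 1181 ± 449 FPKM after IgG (mean ± SD, n = 3 each), and ranked 36 among all genes. Myl9 followed at 449 ± 167 FPKM with the antibody and 672 ± 204 FPKM with IgG (rank 49), and Tagln at 317 ± 126 FPKM with the antibody and 543 ± 174 FPKM with IgG (rank 66). The spreads of Acta2 and Myl9, and those of Myl9 and Tagln, overlapped in both groups. Within every library, however, the FPKM of Acta2 was above that of Myl9, and that of Myl9 above that of Tagln. Myocd, the myocardin gene, was the least abundant at 1.51 ± 1.11 FPKM with the antibody and 2.58 ± 1.54 FPKM with IgG (rank 10087).

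Thin filament genes had a median log2 fold change of -0.56, with 10 of 10 negative and 0 called by edgeR (3 at an unadjusted p under 0.05, 1 called by DESeq2). The median was -0.32 without IgG 18 and -0.37 without anti-CTHRC1 7. Acta2, the smooth muscle alpha-actin gene (ENSMUSG00000035783, chromosome 19, 34241090 to 34255590 on GRCm38, minus strand), was at 2585, 1002 and 1588 CPM in anti-CTHRC1 5, 7 and 39, against 1568, 3762 and 2768 CPM in IgG 14, 18 and 20. Anti-CTHRC1 5 stood above IgG 14 and close to IgG 20, so the groups overlapped, and the span from lowest to highest was 3.76-fold over all libraries, 2.58-fold within the antibody group and 2.40-fold within the IgG group.

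Actg2, the enteric gamma-actin gene (chromosome 6, 83512905 to 83536265, minus strand), was at 47.8, 27.8 and 37.0 CPM in anti-CTHRC1 5, 7 and 39, against 38.4, 138 and 77.5 CPM in IgG 14, 18 and 20. It was high in IgG 18 and 20, whereas IgG 14 lay within the antibody range. Its log2 fold change was -1.17 ± 0.45 (adjusted p = 0.260, edgeR), the lowest of the 31. DESeq2 called it with an adjusted p of 0.0386, and the DESeq2 value was 0.382 without IgG 18, where the fold change was -0.63. The DESeq2 call was also lost without IgG 20 (adjusted p = 0.0774), anti-CTHRC1 39 (0.252) or anti-CTHRC1 7 (0.280), and was made without IgG 14 (5.92e-05) or anti-CTHRC1 5 (0.0458). Acta2, Actg2 and the striated actin genes encode near-identical proteins. How any reads shared between these genes were counted is not stated in these sources, so actin values are uncertain.

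Among the filament-binding genes, Tagln, which encodes the actin-bundling protein SM22, was at 931, 425 and 661 CPM in anti-CTHRC1 5, 7 and 39, against 648, 1406 and 1330 CPM in IgG 14, 18 and 20. The log2 fold change was -0.75 ± 0.38 (adjusted p = 0.368, edgeR), with overlap at IgG 14. Tagln shares 3627 bases with Gm48529 on the opposite strand, and Gm48529 carried over 10% as many counts, so reads of the pair may have been mixed. Lmod1, which encodes leiomodin, a nucleator of smooth muscle actin filaments, was at 137, 93.1 and 111 CPM in anti-CTHRC1 5, 7 and 39, against 130, 185 and 181 CPM in IgG 14, 18 and 20. Only anti-CTHRC1 5 reached into the IgG range, and the log2 fold change was -0.54 ± 0.20 (adjusted p = 0.248, edgeR). Cnn2, a calponin that non-muscle cells also use and whose promoter box is shown above, was at 180, 149 and 154 CPM in anti-CTHRC1 5, 7 and 39, against 204, 266 and 179 CPM in IgG 14, 18 and 20. The groups met only at anti-CTHRC1 5 and IgG 20, and the log2 fold change was -0.42 ± 0.17 (adjusted p = 0.279, edgeR).

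Tpm1, a tropomyosin gene whose product lies along actin filaments, was at 468, 326 and 419 CPM in anti-CTHRC1 5, 7 and 39, against 522, 582 and 478 CPM in IgG 14, 18 and 20. Every antibody library was below every IgG library, by a narrow margin between anti-CTHRC1 5 and IgG 20. The log2 fold change was -0.38 ± 0.17 (adjusted p = 0.307, edgeR), and the value per gene pools muscle and non-muscle tropomyosin isoforms. Tpm2, the other muscle tropomyosin gene, had a log2 fold change of -0.70 ± 0.34 (adjusted p = 0.351, edgeR) and was highest in IgG 20. Cnn1, the smooth muscle calponin gene, spanned 3.99-fold between libraries, with a log2 fold change of -0.58 ± 0.51. With 1 library left out it ran from -0.99 (without anti-CTHRC1 5) to -0.11 (without IgG 18). Cald1, which encodes caldesmon, a calcium-dependent brake on actomyosin, was at 338 ± 104 CPM with the antibody and 438 ± 68.5 CPM with IgG. Smtn, which encodes smoothelin, a marker of contractile cells, was the member with the smallest difference, at 273 ± 65.3 CPM in the antibody group and 290 ± 23.5 CPM in the IgG group. Its log2 fold change of -0.08 became 0.06 without anti-CTHRC1 7.

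**Figure D3:**
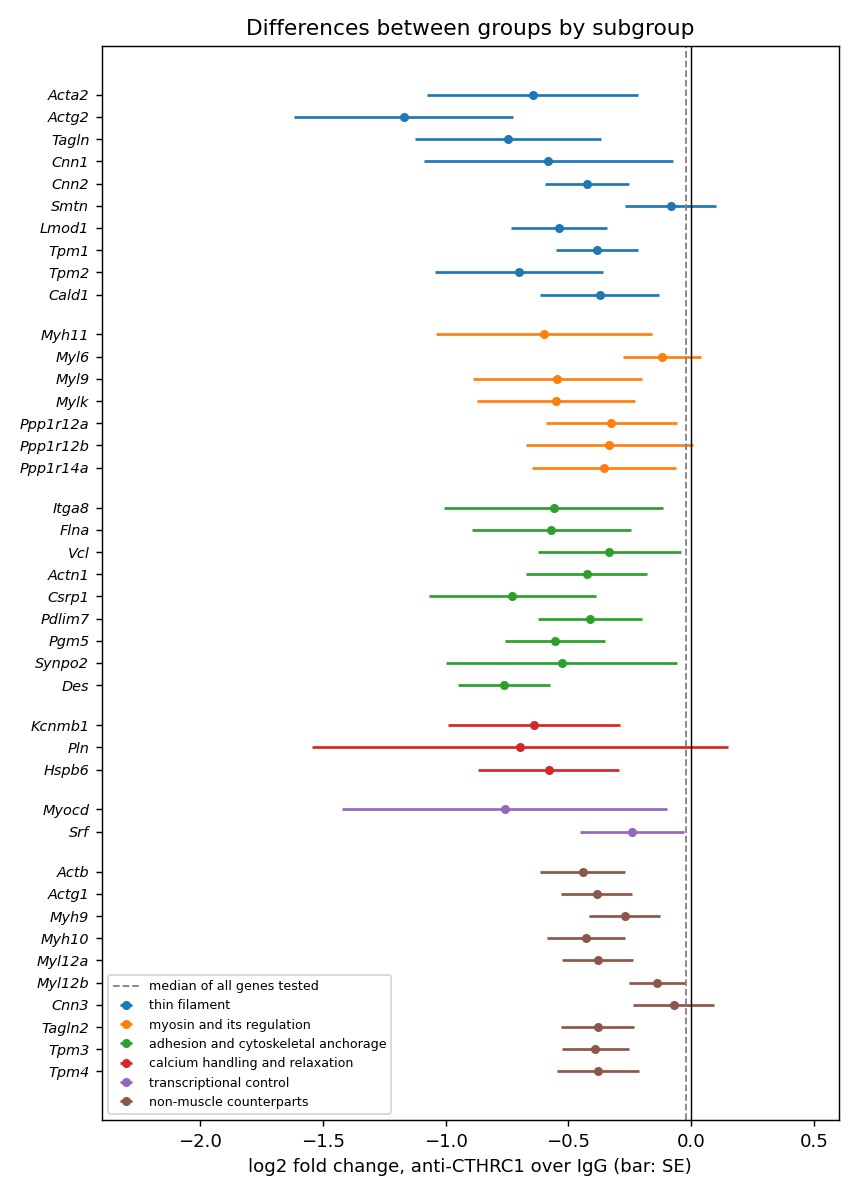
Log2 fold change of anti-CTHRC1 over IgG (horizontal axis, points, with bars for 1 standard error, edgeR) for the 31 contractile genes by subgroup and for 10 non-muscle counterparts. All points lie left of 0, from -1.17 for Actg2 to -0.08 for Smtn among the contractile genes, and the bars of Pln and Myocd are the widest.

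Genes of myosin and its regulation had a median log2 fold change of -0.36, with 7 of 7 negative and 0 called by edgeR (0 at an unadjusted p under 0.05, 0 called by DESeq2). The median was -0.60 without anti-CTHRC1 5, -0.63 without IgG 14 and -0.15 without IgG 18, where 6 of 7 were negative. Myh11, the smooth muscle myosin heavy chain gene (chromosome 16, 14194535 to 14291372, minus strand), was at 1117, 482 and 716 CPM in anti-CTHRC1 5, 7 and 39, against 575, 1602 and 1331 CPM in IgG 14, 18 and 20. IgG 14 lay between anti-CTHRC1 7 and 39, and the other IgG libraries were above all antibody libraries. Myl9, the regulatory light chain gene, had a log2 fold change of -0.54 ± 0.35 (adjusted p = 0.472, edgeR). Myl6, the essential light chain gene, which smooth and non-muscle myosins share, varied least of the 31 between libraries (1.42-fold from lowest to highest). It was at 482 ± 35.8 CPM in the antibody group and 523 ± 90.1 CPM in the IgG group, and its log2 fold change of -0.12 became 0.01 without IgG 18. Myl6 and Myl9 both hold a CArG box in the promoter window shown above.

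The enzymes that set light chain phosphorylation had negative values on both the kinase and the phosphatase side. Mylk, the light chain kinase gene, was at 169 ± 53.7 CPM in the antibody group and 248 ± 81.3 CPM in the IgG group, a log2 fold change of -0.55 ± 0.32 (adjusted p = 0.430, edgeR). The genes of the targeting subunits of myosin phosphatase, Ppp1r12a and Ppp1r12b, each had a log2 fold change of -0.33 (standard errors 0.27 and 0.34), and that of Ppp1r12a became -0.01 without IgG 18. Ppp1r14a, which encodes CPI-17, an inhibitor of that phosphatase, was at 11.7, 10.6 and 10.2 CPM in anti-CTHRC1 5, 7 and 39, against 8.0, 18.3 and 15.3 CPM in IgG 14, 18 and 20. The antibody libraries were close together and lay between IgG 14 and the other IgG libraries. Whether the kinase and phosphatase genes differed from each other in response was not tested.

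Genes of adhesion and cytoskeletal anchorage had a median log2 fold change of -0.55, with 9 of 9 negative and 0 called by edgeR (2 at an unadjusted p under 0.05, 1 called by DESeq2). The median was -0.31 without anti-CTHRC1 7 and -0.32 without IgG 18, where 8 of 9 were negative. Des encodes desmin, the muscle intermediate filament protein that links dense bodies (chromosome 1, 75360329 to 75368579, plus strand). It was at 40.0, 54.4 and 57.9 CPM in anti-CTHRC1 5, 7 and 39, against 80.8, 103 and 74.1 CPM in IgG 14, 18 and 20. The groups did not overlap. Within the antibody group replicate 5 was lowest and replicate 39 highest, whereas Acta2 was highest in replicate 5 and lowest in replicate 7. The log2 fold change was -0.76 ± 0.19 (adjusted p = 0.153, edgeR), the smallest adjusted p of the 31. DESeq2 called Des with an adjusted p of 0.00814, and the value was 0.0705 without IgG 18 and between 0.00383 and 0.0339 without each of the other libraries. Heart and skeletal muscle also use desmin. The heart marker sum was 249, 571 and 452 CPM in anti-CTHRC1 5, 7 and 39 and 993, 183 and 36.9 CPM in IgG 14, 18 and 20, and the skeletal muscle marker sum (8 of 8 positive, 0 called by edgeR or DESeq2, 0 at an unadjusted p under 0.05) was 41.6 to 400 CPM in the antibody group and 33.4 to 203 CPM in the IgG group. The part of heart and skeletal muscle in the Des values was not tested.

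Pgm5, which encodes aciculin, a phosphoglucomutase relative found at muscle adhesion sites, was at 28.2, 22.3 and 27.6 CPM in anti-CTHRC1 5, 7 and 39, against 28.3, 47.5 and 38.8 CPM in IgG 14, 18 and 20. The antibody libraries were all below the IgG libraries, although anti-CTHRC1 5 and IgG 14 were nearly equal. The log2 fold change was -0.55 ± 0.20 (adjusted p = 0.249, edgeR). Csrp1, a LIM-domain protein gene of actin filaments, had a log2 fold change of -0.73 ± 0.34 (adjusted p = 0.332, edgeR). Flna, the gene of filamin A, which joins actin to integrins, was at 1470 ± 341 CPM in the antibody group and 2182 ± 812 CPM in the IgG group (-0.57 ± 0.32). Itga8, the alpha subunit of the smooth muscle integrin alpha 8 beta 1, was at 250 ± 126 CPM with the antibody and 368 ± 149 CPM with IgG, and spanned 4.05-fold between libraries.

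The other 4 anchorage genes had log2 fold changes between -0.53 and -0.33. Pdlim7, a PDZ and LIM adaptor gene, was at 99.6 ± 17.2 CPM in the antibody group and 133 ± 31.8 CPM in the IgG group. Actn1, the alpha-actinin gene of dense bodies, was at 285 ± 91.3 CPM with the antibody and 383 ± 57.3 CPM with IgG. Synpo2, an actin-bundling protein gene, was at 96.7 ± 37.7 CPM with the antibody and 139 ± 81.2 CPM with IgG, and its log2 fold change of -0.53 became 0.02 without IgG 18. Vcl, the vinculin gene of dense plaques, was at 197 ± 50.2 CPM with the antibody and 249 ± 85.9 CPM with IgG, and its log2 fold change of -0.33 became -0.05 without the same library. Vcl overlaps Ap3m1 and Itga8 overlaps E030013I19Rik on the opposite strand, each with over 10% as many counts, which leaves part of their values uncertain. Mean counts were 9019 for Ap3m1 beside 14806 for Vcl, and 2345 for E030013I19Rik beside 20518 for Itga8.

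The 3 genes of calcium handling and relaxation had a median log2 fold change of -0.64, with none called by edgeR or DESeq2 and none at an unadjusted p under 0.05, but did not share an order. Without IgG 18 the median was -0.41. Kcnmb1, the beta subunit of the large-conductance calcium-activated potassium channel that limits contraction, was at 49.8, 19.6 and 29.0 CPM in anti-CTHRC1 5, 7 and 39, against 41.2, 65.9 and 46.1 CPM in IgG 14, 18 and 20. It followed the common order of the antibody libraries, and anti-CTHRC1 5 exceeded IgG 14 and 20 (-0.64 ± 0.35, adjusted p = 0.402, edgeR). Hspb6, a small heat shock protein gene tied to relaxation through cyclic nucleotides, was at 41.8, 33.9 and 39.6 CPM in anti-CTHRC1 5, 7 and 39, against 62.0, 76.9 and 33.5 CPM in IgG 14, 18 and 20. IgG 14 and 18 were above the antibody libraries, and IgG 20 was the lowest of all.

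Pln, which encodes phospholamban, the inhibitor of the calcium pump of the sarcoplasmic reticulum, was at 10.2, 19.5 and 14.9 CPM in anti-CTHRC1 5, 7 and 39, against 58.3, 5.59 and 8.46 CPM in IgG 14, 18 and 20. IgG 14 alone was high, and the other IgG libraries were the lowest of the 6, a 10.4-fold span. The log2 fold change was -0.70 ± 0.85 (adjusted p = 0.726, edgeR) and became 1.08 without IgG 14. Heart muscle also expresses Pln, and the heart marker sums given above put IgG 14, anti-CTHRC1 7, anti-CTHRC1 39 and anti-CTHRC1 5 in the same order as Pln, while IgG 18 and 20 had the opposite order in the sums (183 and 36.9 CPM) and in Pln (5.59 and 8.46 CPM). Of the 12 heart markers 7 had positive log2 fold changes, and Myl4 and Myl7 were called higher, at 2.52 ± 0.19 (adjusted p = 0.0155, edgeR) and 4.24 ± 0.39 (adjusted p = 0.0194, edgeR). The edgeR test called 0.104% of all genes higher. DESeq2 called 3 of the 12 higher, among them Nppa (adjusted p = 1.64e-11), beside 2.78% of the genes it tested. Myl4 was at 27.8 to 44.8 CPM with the antibody and 6.09 CPM in IgG 14, Myl7 at 19.0 to 36.6 CPM with the antibody and 1.09 CPM in IgG 14, and Nppa at 2.19 to 19.2 CPM with the antibody and 0.474 CPM in IgG 14. These 3 heart markers were therefore not high in IgG 14, where the sum was highest. The other heart markers were each highest in IgG 14, among them Myl2 at 100 CPM and Myl3 at 66.8 CPM. The part of heart tissue in the Pln values was not tested. Pln also lies within Cep85l on the opposite strand, which had over 10% as many counts (mean count 808 for Cep85l beside 1370 for Pln).

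**Figure D4:**
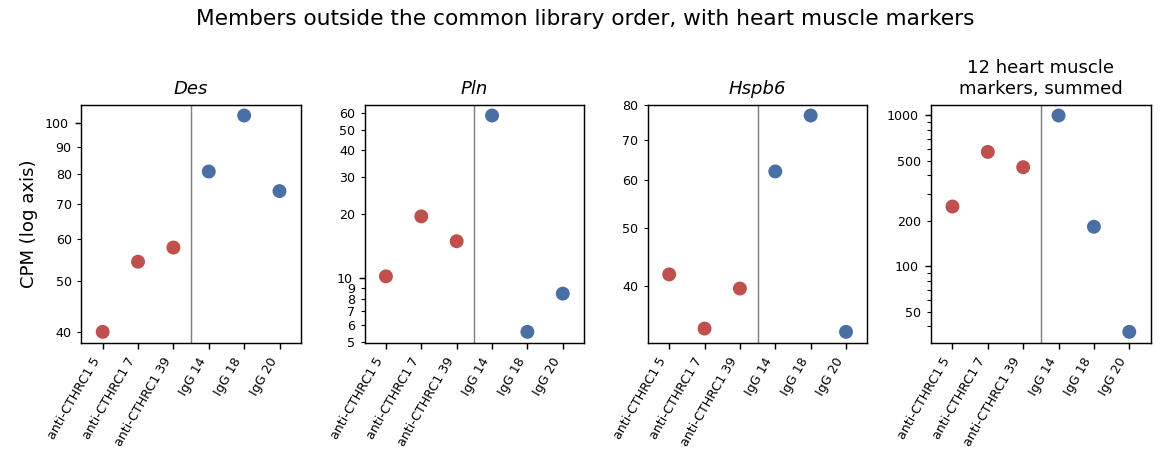
Level of Des, Pln and Hspb6 and the summed level of 12 heart muscle markers in each library (CPM, log axis, anti-CTHRC1 red and left of the line, IgG blue and right). Des is lower in every anti-CTHRC1 library than in every IgG library, while Pln is highest in IgG 14 at 58.3 CPM, where the heart marker sum is also highest at 993 CPM.

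The 2 transcriptional regulators had a median log2 fold change of -0.50, which was -0.83 without anti-CTHRC1 5 and -0.12 without IgG 18. Myocd was at 18.4, 4.14 and 8.38 CPM in anti-CTHRC1 5, 7 and 39, against 6.36, 27.5 and 18.6 CPM in IgG 14, 18 and 20. It repeated the library order of Acta2 and Myh11 within each group, with a 6.64-fold span, and the groups overlapped widely (-0.76 ± 0.66, adjusted p = 0.608, edgeR). With 1 library left out the value ran from -1.48 (without anti-CTHRC1 5) to -0.27 (without IgG 18). Srf, its DNA-binding partner, whose own promoter holds the CArG boxes shown above, was at 29.0, 34.7 and 31.4 CPM in anti-CTHRC1 5, 7 and 39, against 32.4, 50.3 and 29.7 CPM in IgG 14, 18 and 20. Only IgG 18 stood out, and without it the log2 fold change of -0.24 became 0.03. Of 12 partner genes of MYOCD and SRF, 10 were negative (median -0.20) and 0 were called by edgeR. At an unadjusted edgeR p under 0.05, 2 were lower, beside 9.31% of all genes. DESeq2 called 1 lower, beside 4.70% of the genes it tested. Fhl2, a LIM coregulator, had the lowest p among the 12 partners (-0.74 ± 0.22, adjusted p = 0.192, edgeR). Gata6, a transcription factor of vascular smooth muscle, followed (-0.40 ± 0.14, adjusted p = 0.223, edgeR).

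The contractile genes were then set against the related genes that all cells use. The 10 non-muscle counterparts had a median log2 fold change of -0.38, with 10 of 10 negative, 0 called by edgeR or DESeq2, 6 at an unadjusted p under 0.05 and 7 without overlap. Of all genes tested, 52.3% were negative, 9.31% were lower at that unadjusted limit and 11.0% were lower without overlap. Their standard errors ran from 0.11 to 0.17, where those of the contractile genes ran from 0.16 to 0.85. Actb, the cytoplasmic beta-actin gene, was at 1055, 1000 and 1022 CPM in anti-CTHRC1 5, 7 and 39, against 1323, 1697 and 1163 CPM in IgG 14, 18 and 20. All antibody libraries were below all IgG libraries (-0.44 ± 0.17, adjusted p = 0.264, edgeR). Tpm3, a non-muscle tropomyosin gene, had a log2 fold change of -0.39 ± 0.14 (adjusted p = 0.233, edgeR), and Myh10, a non-muscle myosin heavy chain gene, of -0.43 ± 0.16 (adjusted p = 0.255).

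Ratios within a library do not depend on library scaling, and none of 6 contractile to non-muscle ratios separated the groups. The log2 ratio of Acta2 to Actb was 0.64 ± 0.65 after the antibody and 0.88 ± 0.55 after IgG (difference -0.24, two-sided exact permutation p = 0.7, n = 3 each). That of Myh11 to Myh10 was 1.72 ± 0.36 after the antibody and 1.84 ± 0.77 after IgG (difference -0.12, exact permutation p = 0.8). The differences for Tagln to Tagln2, Cnn1 to Cnn3, Tpm2 to Tpm4 and Myl9 to Myl12a were -0.37, -0.42, -0.31 and -0.16 (exact permutation p = 0.4, 0.4, 0.5 and 0.7). All 6 adjusted p-values were 0.8, and 3 libraries against 3 cannot give a p below 0.1.

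**Figure D5:**
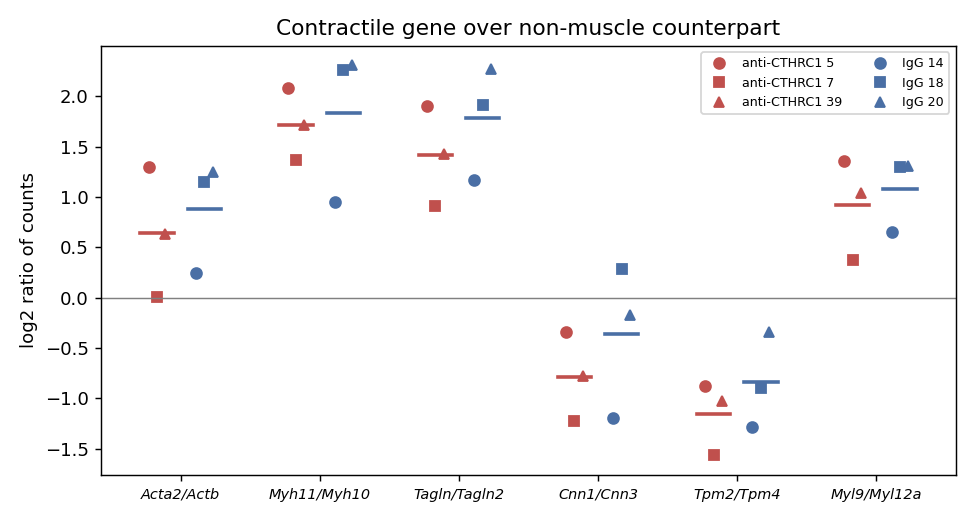
Log2 ratio of counts (vertical axis) of 6 contractile genes to their non-muscle counterparts, with 1 point per library and a line at the group mean (anti-CTHRC1 red, left, and IgG blue, right). The groups overlap in all 6 pairs, and the mean is lower after the antibody in each, by 0.42 at most.

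Neighbouring parts of the contraction pathway had medians nearer to 0. Of 15 genes of calcium entry and stores, 8 were negative (median -0.00) and 0 were called by edgeR. At an unadjusted edgeR p under 0.05, 2 were lower and 1 was higher, and DESeq2 called 1 lower. Of all genes tested, 9.31% were lower and 7.80% higher at that limit, and DESeq2 called 4.70% of those it tested lower. Slc8a1, the sodium-calcium exchanger gene, was at 38.9, 33.7 and 35.5 CPM in anti-CTHRC1 5, 7 and 39, against 58.6, 76.7 and 54.3 CPM in IgG 14, 18 and 20. The groups were well apart, with a log2 fold change of -0.81 ± 0.15 (adjusted p = 0.0953, edgeR), and DESeq2 called it with an adjusted p of 0.000639. Atp2b1, a plasma membrane calcium pump gene, followed at -0.32 ± 0.10 (adjusted p = 0.211, edgeR).

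Of 23 further genes of dense plaques and adhesion, 19 were negative (median -0.26) and 0 were called by edgeR. At an unadjusted edgeR p under 0.05, 4 were lower and 1 was higher, and DESeq2 called 1 lower. Of all genes tested, 9.31% were lower and 7.80% higher at that limit. DESeq2 called 4.70% of those it tested lower and 2.78% higher. Pdlim1, a PDZ and LIM adaptor gene, had the lowest p (-0.41 ± 0.11, adjusted p = 0.185, edgeR). Itga5, the alpha subunit of the fibronectin receptor, was at 198, 122 and 159 CPM in anti-CTHRC1 5, 7 and 39, against 186, 591 and 412 CPM in IgG 14, 18 and 20. IgG 14 lay within the antibody range (-1.31 ± 0.41, adjusted p = 0.201, edgeR, and 0.00637 in DESeq2). Of 13 smooth muscle genes outside the apparatus, 8 were negative (median -0.17) and 0 were called by edgeR. At an unadjusted edgeR p under 0.05, 1 was lower and 2 were higher, and DESeq2 called 2 higher, beside the shares just given. The smallest p-values there belonged to genes with positive values, Aoc3, an amine oxidase gene of vascular smooth muscle and fat (0.55 ± 0.14, adjusted p = 0.154, edgeR, and 0.00920 in DESeq2), and Sncg, the gamma-synuclein gene (0.80 ± 0.25, adjusted p = 0.200, edgeR, and 0.0360 in DESeq2).

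Of 8 genes linked to the synthetic state of smooth muscle cells, 7 were negative (median -0.50) and 2 were called lower (5 at an unadjusted p under 0.05, 3 called by DESeq2). Of all genes tested, edgeR called 0.213% lower and 9.31% were lower at that unadjusted limit. DESeq2 called 4.70% of the genes it tested lower. Lgals3, the galectin-3 gene, which macrophages also express strongly, was at 34.3, 33.4 and 34.9 CPM in anti-CTHRC1 5, 7 and 39, against 74.4, 63.3 and 68.0 CPM in IgG 14, 18 and 20. The groups did not overlap, and Lgals3 fell by 1.0 in log2 terms (standard error 0.10, edgeR adjusted p = 0.0196), beside the lower macrophage marker sums given above, whose part in this value was not tested.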

How the data were processed

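For each gene and library, the deposited table gives a raw count and an FPKM scaled by gene length and library size, per the file headers. GRCm38, HISAT2, StringTie and DESeq2 are named in the submitters' processing notes. Roles, versions and whether counting used strand are not given in the sources used here. Libraries came from a stranded total RNA kit with paired-end sequencing, per the labels' protocols. The main test was the two-sided quasi-likelihood F-test of edgeR 4.0.16 in R 4.3.3, on the counts of all 6 libraries with TMM scaling, robust dispersion, the filterByExpr filter and no covariate. P-values were adjusted by Benjamini-Hochberg over 19241 genes, with a threshold of 0.05. CPM values use TMM library sizes. On simulated counts of the same comparison, with 200 of 18608 genes changed, it called 41% of 2-fold and 77% of 4-fold changes, with 9 false calls.

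The members and lists were chosen with earlier results of these data known. All 31 members are named, those with an unadjusted p under 0.05 or without overlap by library, along with genes past the threshold, or else the 2 with the smallest p, in 7 pathway lists, of which 1 list, and 1 gene of another, are not reported here. Alternatives were DESeq2 1.42.0, its size factors in edgeR, limma 3.58.1 (voom, or log2(FPKM + 1) for genes of at least 1 FPKM in 3 libraries), no filter, library sizes that leave out mitochondrial and haemoglobin genes, a threshold of 0.1, and leaving out libraries. DESeq2 with libraries left out was added after the data were seen. Gene symbols were matched to 27025 RefSeq promoters. Of the members, 17 overlap another gene row, 14 of them on the opposite strand. Deposited counts summed to 64556253 to 67859566 per library.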

Additional observations from a re-analysis of the deposited data

How the results depend on the processing

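The count of all genes past the threshold, 61, was 1584 with DESeq2, 92 with limma on FPKM, 95 without the filter, 234 at a threshold of 0.1, 0 to 227 with 1 library left out, and 0 without anti-CTHRC1 39 and IgG 14. Of the 31 members, 0 were called in each of these settings other than DESeq2, which called 2 on all libraries, 14 without IgG 14, 0 without IgG 18, 3 without IgG 20, 7 without anti-CTHRC1 5, 1 without anti-CTHRC1 7, 1 without anti-CTHRC1 39 and 3 without anti-CTHRC1 39 and IgG 14. The median log2 fold change of the members was -0.55, between -0.51 and -0.56 under the other tools, scalings and filter, -0.31 without IgG 18, -0.35 without anti-CTHRC1 7, -0.73 without IgG 14, -0.69 without anti-CTHRC1 5, -0.52 without anti-CTHRC1 39 and -0.47 without IgG 20. All 31 values were negative in each setting except with IgG 14, IgG 18 or anti-CTHRC1 7 left out. With 1 library left out, signs turned for Smtn (-0.29 to 0.0581), Myl6 (-0.24 to 0.0132), Synpo2 (-0.86 to 0.0162), Srf (-0.35 to 0.0328) and Pln (-1.16 to 1.08), and Pln was also 1.08 without anti-CTHRC1 39 and IgG 14. Ratio differences turned likewise for Acta2 to Actb (-0.56 to 0.0828), Myh11 to Myh10 (-0.56 to 0.11) and Myl9 to Myl12a (-0.38 to 0.11). The cause was not tested beyond the library left out. No paired analysis was possible because the groups share no replicate numbers. With 3 libraries a group whose independence is not stated, the groups overlapped in all of the 31 members except Tpm1, Pgm5 and Des. Of all genes tested, 11.0% were lower without overlap. A missed threshold does not show that levels were equal.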

Other observations

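The following genes of the pathway lists are described by value and were chosen after their values were seen. Kcnma1, the pore-forming subunit of the potassium channel whose beta subunit is Kcnmb1, had the opposite sign. It was at 53.3, 16.8 and 32.4 CPM in anti-CTHRC1 5, 7 and 39, against 11.2, 11.5 and 23.3 CPM in IgG 14, 18 and 20. Only anti-CTHRC1 7 lay within the IgG range, and the log2 fold change was 1.16 ± 0.47 (± standard error, adjusted p = 0.280, edgeR), beside -0.64 ± 0.35 for Kcnmb1.

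Lpp, which encodes a LIM protein of focal adhesions and dense bodies, was at 153, 92.7 and 113 CPM in anti-CTHRC1 5, 7 and 39, against 110, 167 and 7.33 CPM in IgG 14, 18 and 20. The level in IgG 20 was far below that of the other 5 libraries.

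Casq2, a calsequestrin gene of the calcium store in heart and smooth muscle, was at 7.66, 17.1 and 13.5 CPM in anti-CTHRC1 5, 7 and 39, against 20.7, 4.39 and 2.96 CPM in IgG 14, 18 and 20. As for Pln and the heart markers, IgG 14 was highest and anti-CTHRC1 7 came next, and the groups overlapped (log2 fold change 0.45 ± 0.73).

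Vcam1, an adhesion molecule gene of the synthetic list, was at 85.8, 77.9 and 74.3 CPM in anti-CTHRC1 5, 7 and 39, against 203, 211 and 133 CPM in IgG 14, 18 and 20. The groups did not overlap, and the log2 fold change was -1.20 ± 0.19 (adjusted p = 0.0726, edgeR).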
